A study of Mus musculus with 15 samples.

Results

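The genes described here encode activity-regulated secreted proteins and pentraxins of neurons: Nptx1, Nptx2, Nptxr, Vgf, Scg2, Pcsk1 and Inhba. They were taken by symbol from the deposited table of gene counts, 7 of its 24498 genes, and all 7 were among the 15075 genes that passed the expression filter and were tested. RNA was sequenced from primary mouse hippocampal neurons, which were plated by a core facility and kept in neurobasal medium with the supplements GlutaMAX and B27. After 7 days of differentiation the cultures were treated for 24 h in a crossed design of acetate and an inhibitor of ACSS2, the enzyme that makes acetyl-CoA from acetate. DMSO vehicle (4 libraries) received DMSO and plain medium, and DMSO acetate (4 libraries) received DMSO and 5 mM acetate. Inhibitor vehicle (3 libraries) received 20 µM inhibitor and plain medium, and inhibitor acetate (4 libraries) received 20 µM inhibitor and 5 mM acetate. Every group was in neurobasal medium, the controls carried the DMSO solvent, and the labels name no strain, sex or age of the donor animals. The labels do not say whether libraries of a group stem from separate cultures or animals; p-values therefore speak of the spread between these samples, which may be technical.

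The neuronal pentraxins are multimeric proteins that gather AMPA-type glutamate receptors at excitatory synapses. NPTX1 and NPTX2 (also called Narp) are secreted, and NPTXR is anchored in the membrane and assembles with them. VGF and secretogranin II, the product of Scg2, are precursor proteins of dense-core vesicles that are cut into bioactive peptides, and PCSK1 (also called PC1/3) is one of the proteases that cut such precursors. Inhba encodes the beta A subunit of activin, a secreted ligand of the TGF-beta family. Nptx2, Vgf, Scg2 and Inhba are known in hippocampal neurons as genes that synaptic activity induces.

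A library held between 19688231 and 39234799 gene counts, so 1 count was worth 0.0277 to 0.0541 CPM, the count relative to a library size scaled by TMM (trimmed mean of M-values). Folds are on the log2 scale, their standard errors (SE) and p-values come from edgeR's quasi-likelihood test, and the words rose and fell are kept for genes whose Benjamini-Hochberg adjusted p over all 15075 tested genes was under 0.05. All 14 pan-neuronal markers, such as Tubb3 and Syp, were tested and none was at 0 counts in any library. Markers of other cells were also present and moved with acetate. The mean log2 CPM over marker lists of astrocytes, oligodendrocytes, microglia, vessels and meninges, called the non-neuronal score here, ranged from 2.99 to 4.20 in the DMSO vehicle libraries and from 1.76 to 1.93 in those with DMSO and acetate. It ranged from 1.64 to 4.03 with inhibitor and vehicle, and from 1.55 to 1.89 with inhibitor and acetate. DMSO vehicle 1 (2.99) and inhibitor vehicle 2 (1.64) stood apart from the other libraries of their groups, and folds, ratios and counts were recomputed without both. This left 3 DMSO vehicle and 2 inhibitor vehicle libraries. The libraries left out were picked because they deviated in these data, so p-values of those fits are not independent support. Where a call or a count changed, the value without both is given beside it. All 14 tested microglia markers fell with acetate, without the inhibitor (median -4.60) and with it (median -3.70), and the microglial markers Cx3cr1, Itgam, P2ry12, Fcrls and Ptprc were at 0 counts in at least 1 library. Of the pan-neuronal markers, 12 rose with acetate without inhibitor (median 0.67) and 11 with it (median 0.46), and all 14 in both comparisons without those 2 libraries. Of the 5 sex-linked transcripts, 1 rose and 3 fell with acetate without inhibitor, and 1 rose and 2 fell with it. The part of these shifts in the results below was not tested.

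Without the inhibitor, acetate lowered 3 of the 7 genes (Nptx2, Scg2 and Inhba) and raised 0, where 27.5% of all tested genes fell and 23.7% rose. With the inhibitor, acetate lowered 2 (Nptx2 and Vgf, against 20.6% of all genes) and raised 1 (Nptx1, against 14.5%). The inhibitor without acetate lowered 4 (Nptx1, Nptx2, Nptxr and Pcsk1, against 1.99% of all genes) and raised 0 (against 3.47%). In the presence of acetate the inhibitor lowered 2 (Vgf and Pcsk1, against 3.42%) and raised 0 (against 2.36%). At an unadjusted p under 0.05, edgeR had 0 of the 7 genes higher with acetate without inhibitor and 0 with the inhibitor without acetate. It had 1 higher with the inhibitor with acetate, and DESeq2's Wald test gave the same counts. In edgeR 4, 7 and 3 genes were lower at that level in these comparisons, and acetate with inhibitor had 2 higher and 2 lower. The share of all genes at an unadjusted p under 0.05 was not counted, here or below. When DMSO vehicle 1 and inhibitor vehicle 2 were left out, acetate without inhibitor lowered 4 genes (against 31.6% of all genes) and raised 0 (against 28%), and acetate with inhibitor lowered 4 (against 26.7%) and raised 1 (against 22.5%). In the same libraries the inhibitor without acetate lowered 5 (against 2.6%) and raised 0 (against 2.71%), and with acetate it lowered 3 (against 10.7%) and raised 1 (against 6.89%). The median fold over the 7 genes was -0.46 and -0.38 for acetate without and with inhibitor, and -0.95 and -0.41 for the inhibitor without and with acetate. Over all tested genes these medians were -0.03, -0.03, -0.0034 and 4e-04. The comparisons are not independent: acetate without inhibitor and inhibitor without acetate share the DMSO vehicle libraries, and the other groups are each used in 2 comparisons in the same way. When only DMSO vehicle and inhibitor vehicle were fitted, all 4 calls of the inhibitor without acetate were lost, with adjusted p of 0.229 to 0.24 for those genes and 0 calls over all genes, while 5 of the 7 genes had an unadjusted p under 0.05.

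**Figure D1:**
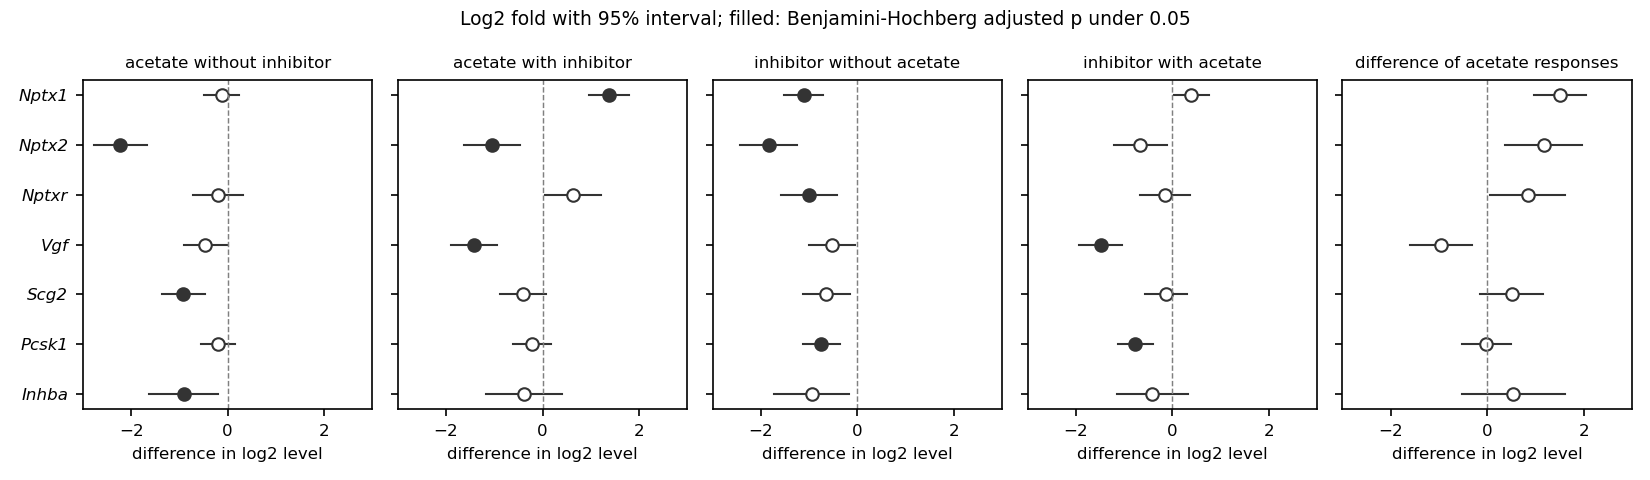
Log2 fold of each of the 7 genes in 4 comparisons and, in the panel on the right, the difference of the acetate responses, with bars for the 95% confidence interval of edgeR's fit. Filled points passed an adjusted p of 0.05. Nptx1 lies at -1.11 for the inhibitor without acetate and at 1.38 for acetate with inhibitor, which share the inhibitor vehicle libraries. Nptx2 lies below 0 in the 4 comparisons between groups.

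Nptx2, the activity-induced pentraxin (chromosome 5, 144545902 to 144557478, plus strand, mm10), fell with acetate and fell with the inhibitor. In DMSO vehicle libraries 1 to 4 it stood at 25.7, 37.7, 51.3 and 48.8 CPM, and in DMSO acetate at 8.49, 8.60, 9.36 and 8.60 CPM. In inhibitor vehicle libraries 1 to 3 it stood at 13.6, 5.92 and 14.7 CPM, and in inhibitor acetate libraries 1 to 4 at 5.70, 6.20, 6.17 and 4.09 CPM. Every library that received acetate, the inhibitor or both lay below every DMSO vehicle library, and inhibitor vehicle 2 lay among the inhibitor acetate libraries. The fold with acetate was -2.22 without inhibitor (SE 0.25, adjusted p = 2.41e-05), a 4.66-fold lower level, and -1.05 with it (SE 0.28, adjusted p = 0.0103), 2.06-fold lower. The fold with inhibitor was -1.84 without acetate (SE 0.28, adjusted p = 0.0064), while with acetate it was -0.66 (SE 0.26, adjusted p = 0.149) and did not pass, although all 4 inhibitor acetate libraries lay below all 4 DMSO acetate libraries. Without DMSO vehicle 1 and inhibitor vehicle 2 the 4 folds were -2.39, -1.35, -1.70 and -0.66, and all passed (highest adjusted p = 0.00217); the last also passed without inhibitor vehicle 2 alone (adjusted p = 0.0435). With the non-neuronal score entered as a covariate the acetate fold was -1.0 (adjusted p = 0.00735) without inhibitor and -0.11 (adjusted p = 0.766) with it. The score did not overlap between DMSO vehicle (2.99 to 4.20) and DMSO acetate (1.76 to 1.93). With the inhibitor, only inhibitor vehicle 2 (1.64) reached the scores of the acetate libraries (1.55 to 1.89). Folds with the covariate, here and below, therefore extrapolate between vehicle and acetate and do not remove a shift in cell types. The call for acetate with inhibitor was also lost without inhibitor vehicle 1 (adjusted p = 0.055) or inhibitor vehicle 3 (adjusted p = 0.0668). In bulk RNA, fewer cells of a type and less RNA per cell cannot be told apart, here or in the results that follow.

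Nptx1, the second secreted pentraxin (chromosome 11, 119538719 to 119547753, minus strand), was lower with the inhibitor alone and higher when acetate was added to it. Both comparisons use the same 3 inhibitor vehicle libraries, with opposite sign, so they are not separate observations. Its level was 124, 74.4, 90.4 and 84.8 CPM in DMSO vehicle 1 to 4, and 91.9, 78.8, 87.7 and 84.6 CPM in DMSO acetate. It was 32.9, 60.0 and 36.9 CPM in inhibitor vehicle 1 to 3, and 101, 118, 121 and 111 CPM in inhibitor acetate 1 to 4. The inhibitor vehicle libraries were the lowest 3 of all 15, the inhibitor acetate libraries lay above every DMSO acetate library, and the groups with DMSO overlapped. DMSO vehicle 1 and inhibitor vehicle 2 were the highest of their groups, where they were the lowest of their groups for Nptx2. The inhibitor without acetate lowered Nptx1 by a fold of -1.11 (SE 0.19, adjusted p = 0.00918), 2.16-fold lower. Acetate in the presence of the inhibitor raised it by 1.38 (SE 0.19, adjusted p = 3.42e-04), 2.60-fold higher. The folds for acetate without inhibitor, -0.12 (SE 0.17, adjusted p = 0.56), and for the inhibitor with acetate, 0.39 (SE 0.17, adjusted p = 0.189), did not pass. Without DMSO vehicle 1 and inhibitor vehicle 2 the inhibitor's fold with acetate was the same size and passed (0.39, adjusted p = 0.00213), and the calls of the inhibitor without acetate (-1.25, adjusted p = 4.67e-06) and of acetate with inhibitor (1.69, adjusted p = 1.85e-10) were kept. With the score as a covariate Nptx1 fell with acetate without inhibitor (-0.82, adjusted p = 0.00293).

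Nptxr, the membrane-anchored partner (chromosome 15, 79786351 to 79804766, minus strand), was lower with the inhibitor alone, by a margin close to the threshold. The levels were 15.9, 8.67, 18.8 and 14.2 CPM in DMSO vehicle 1 to 4 and 12.1, 10.5, 15.4 and 11.9 CPM in DMSO acetate 1 to 4. With the inhibitor they were 9.04, 6.29 and 6.28 CPM in vehicle 1 to 3 and 11.8, 14.7, 11.7 and 6.57 CPM in acetate 1 to 4. The groups overlapped in all 4 comparisons, and DMSO vehicle 2 and inhibitor acetate 4 were the lowest of their groups. The inhibitor without acetate lowered Nptxr by a fold of -0.99 (SE 0.27, adjusted p = 0.0474). This call was lost in 13 of 15 fits that left out 1 library (adjusted p 0.0329 to 0.115) and without DMSO vehicle 1 and inhibitor vehicle 2 (-0.85, adjusted p = 0.0983). The fold of 0.64 with acetate in the presence of the inhibitor did not pass (SE 0.27, adjusted p = 0.0827), and was 0.55 without DMSO vehicle 1 and inhibitor vehicle 2 (adjusted p = 0.117); it passed without DMSO vehicle 2 alone (adjusted p = 0.0483) or inhibitor acetate 4 (adjusted p = 0.0243). In the GENCODE annotation used here Nptxr shares 890 exon bases, 17.2% of its exons, with Npcd, a gene on the same strand that has 0 counts in every library, so the Nptxr count is uncertain.

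**Figure D2:**
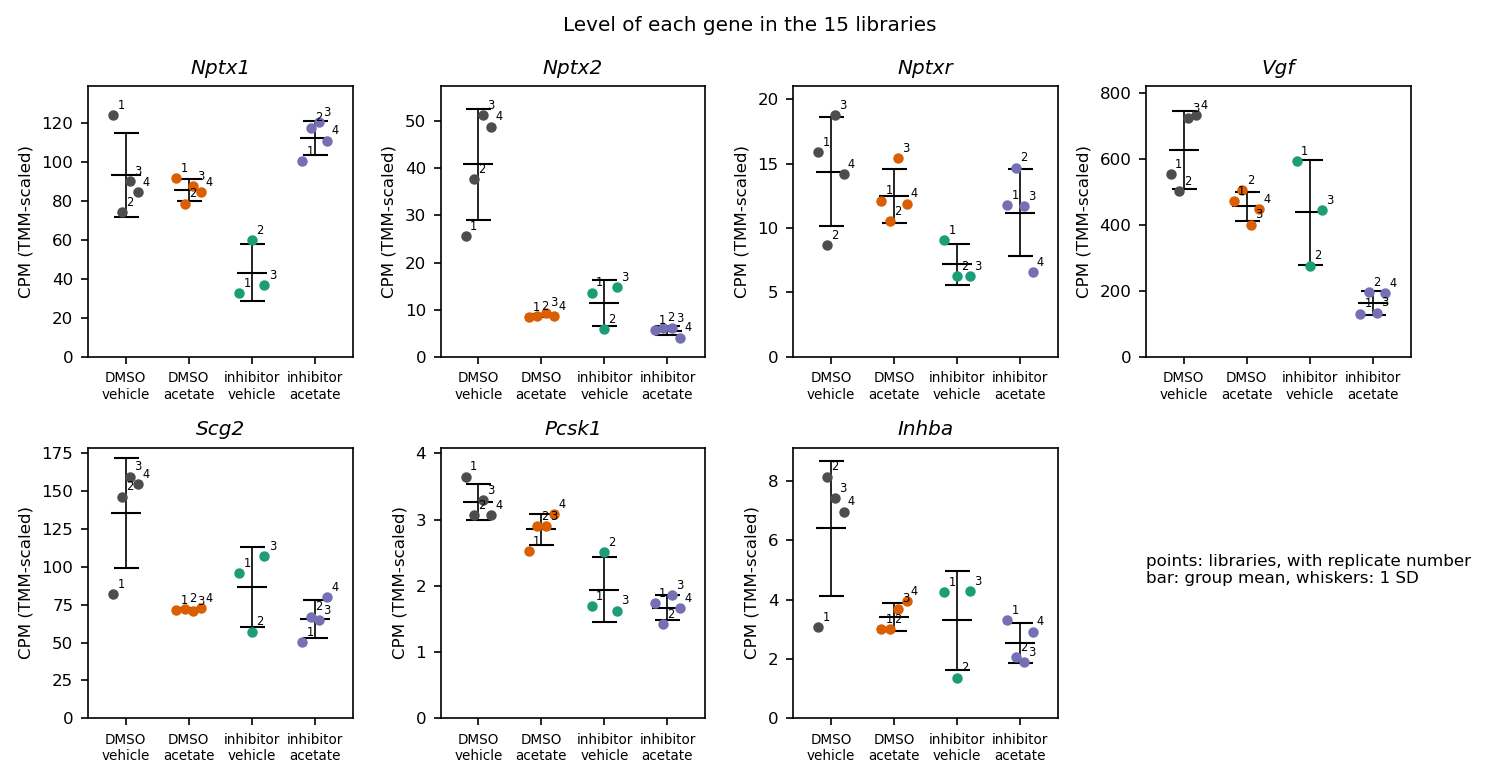
CPM of the 7 genes in the 15 libraries, with a numbered point for each library, a dash at the mean of the group and whiskers of 1 SD; axes start at 0. Nptx2 is at 25.7 to 51.3 CPM in DMSO vehicle and at 4.09 to 14.7 CPM in the other 3 groups, and Vgf is at 131 to 197 CPM in inhibitor acetate against 277 CPM or more elsewhere.

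Ratios of genes inside a library do not depend on how libraries are scaled. For the 2 secreted pentraxins, the log2 ratio of Nptx2 to Nptx1 averaged -1.22 ± 0.71 (SD, n = 4) with DMSO alone and -3.28 ± 0.11 (n = 4) with acetate. In the inhibitor groups it was -1.97 ± 1.17 (n = 3) with vehicle and -4.34 ± 0.27 (n = 4) with acetate. In linear terms the ratio was 0.207 to 0.576 in DMSO vehicle and 0.0376 to 0.0574 in inhibitor acetate. The difference in log2 ratio was -2.06 for acetate without inhibitor (exact permutation test, two-sided p = 0.0286, adjusted p = 0.0952) and -2.37 with it (exact permutation p = 0.0571, adjusted p = 0.114). For the inhibitor with acetate it was -1.06 (exact permutation p = 0.0286, adjusted p = 0.0952). The groups did not overlap in these 3 comparisons, and they did for the inhibitor without acetate (-0.76, exact permutation p = 0.343, adjusted p = 0.381), where inhibitor vehicle 2 was at a log2 ratio of -3.32. The ratio of Nptx2 to Nptxr differed by -2.0 with acetate without inhibitor (exact permutation p = 0.0286, adjusted p = 0.0952) and by -1.54 with it (exact permutation p = 0.0571, adjusted p = 0.114). Leaving out DMSO vehicle 1 and inhibitor vehicle 2, the acetate differences were -2.41 and -3.04 for Nptx2 to Nptx1 and -2.27 and -1.87 for Nptx2 to Nptxr, without and with inhibitor. The inhibitor without acetate then gave -0.43 for Nptx2 to Nptx1 with no overlap (3 libraries against 2, exact permutation p = 0.2, the smallest possible). The p-values of 0.0286 and 0.0571 are the smallest that 4 libraries against 4 and 4 against 3 can give. None of the 20 ratio tests (5 gene pairs in 4 comparisons) passed 0.05 after Benjamini-Hochberg adjustment over all 20. With these smallest p-values no outcome of the 20 tests could have passed. The adjusted p-values of the ratios therefore cannot tell whether a ratio differed.

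**Figure D3:**
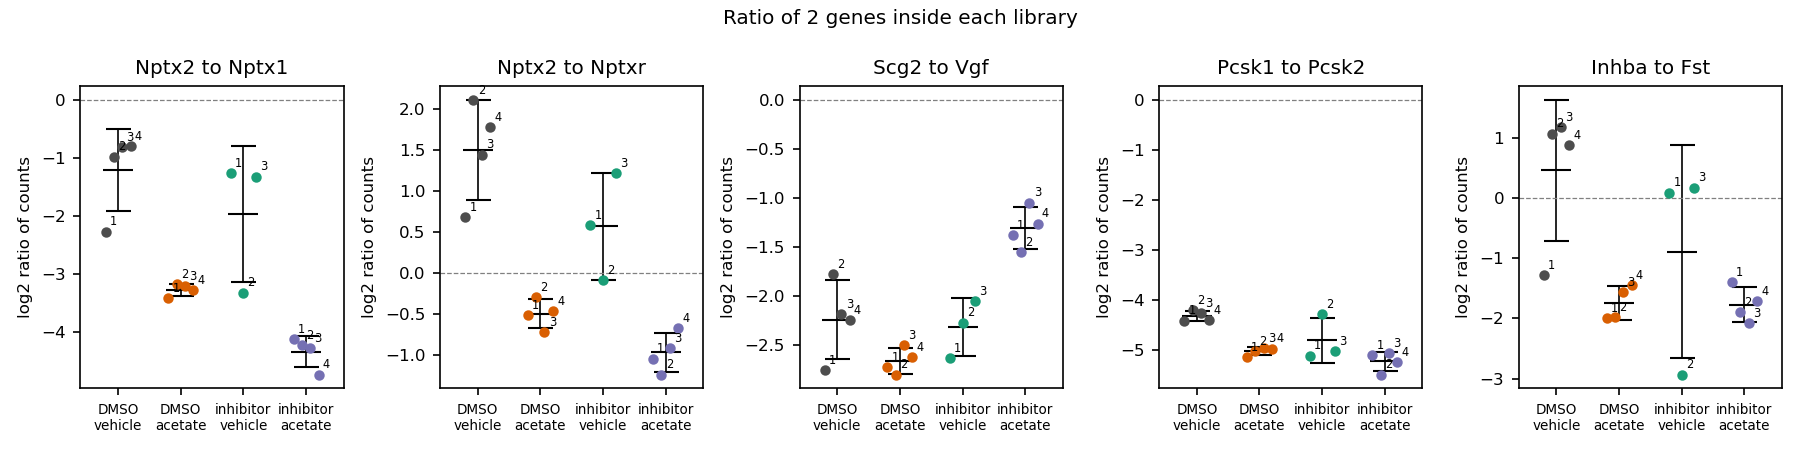
Within-library log2 ratios of CPM for 5 pairs of genes, with a numbered point for each library, a dash at the mean of the group and whiskers of 1 SD. The ratio of Nptx2 to Nptx1 lies at -0.80 to -2.27 in DMSO vehicle and at -4.12 to -4.73 in inhibitor acetate; the ratio of Scg2 to Vgf is highest in inhibitor acetate.

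Among the AMPA receptor subunits that the pentraxins bind, 2 of 4 rose with acetate without inhibitor and 2 with it, and 0 fell in either (list medians 0.26 and 0.34). Over all tested genes 23.7% and 14.5% rose and 27.5% and 20.6% fell. The subunits that rose were 3 and 4 with DMSO vehicle 1 and inhibitor vehicle 2 left out, where 28% and 22.5% of all genes did. In those libraries 31.6% and 26.7% of all genes fell. Gria2 rose by 0.73 (SE 0.14, adjusted p = 6.03e-04) and Gria1 by 0.23 (adjusted p = 0.0212) without inhibitor. With the inhibitor Gria1 rose by 0.35 (adjusted p = 0.00566) and Gria4 by 0.23 (adjusted p = 0.0246). Gria2 also rose with the inhibitor without acetate (0.58, adjusted p = 0.0349), a call that was lost without the same 2 libraries (0.38, adjusted p = 0.0575). Other pentraxin-domain genes were scarce, with 2 of 5 tested: Ptx3, an inflammatory pentraxin, fell with acetate without inhibitor (-1.03, adjusted p = 0.00575), as did Svep1 (-2.14, adjusted p = 0.0114). Of 14 other secreted synapse organizers, 4 rose and 6 fell with acetate without inhibitor (median -0.22), and 5 rose and 5 fell with it (median -0.08); without both libraries these counts were 5 and 7, and 5 and 6. Cbln1, a cerebellin that bridges neurexins to glutamate receptors, rose by 1.16 (adjusted p = 6.06e-06), while Gpc4, a glypican released by astrocytes, fell by 1.49 (adjusted p = 5.42e-05) and Nrn1, a membrane-linked neuritin, by 0.63 (adjusted p = 1.17e-04). With the inhibitor alone 1 organizer rose, against 3.47% of all genes, and 4 fell, against 1.99%. Among those that fell were Nrn1 (-0.64, adjusted p = 0.00817) and Gpc4 (-0.98, adjusted p = 0.0205). Without both libraries 1 rose and 3 fell, against 2.71% and 2.6% of all genes.

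Vgf, the precursor of the VGF neuropeptides (chromosome 5, 137026392 to 137033351, plus strand), was lowest where acetate and the inhibitor were combined. It stood at 554, 502, 725 and 735 CPM in DMSO vehicle 1 to 4 and at 473, 506, 402 and 449 CPM in DMSO acetate. With the inhibitor it stood at 595, 277 and 445 CPM in vehicle 1 to 3 and at 131, 197, 134 and 193 CPM in acetate 1 to 4. All 4 inhibitor acetate libraries lay below the other 11, and the other 3 groups overlapped, with inhibitor vehicle 2 the lowest among them. The fold was -1.42 for acetate with inhibitor (SE 0.22, adjusted p = 6.39e-04), 2.68-fold lower, and -1.48 for the inhibitor with acetate (SE 0.21, adjusted p = 0.0025), 2.79-fold lower. The folds of -0.46 for acetate without inhibitor (SE 0.21, adjusted p = 0.0737) and of -0.52 for the inhibitor without acetate (SE 0.22, adjusted p = 0.163) did not pass; the last was -0.33 (adjusted p = 0.302) without DMSO vehicle 1 and inhibitor vehicle 2. The fold of acetate without inhibitor passed without DMSO vehicle 1 and inhibitor vehicle 2 (-0.51, adjusted p = 0.00774), without DMSO vehicle 2, inhibitor vehicle 1 or inhibitor vehicle 2 alone (adjusted p 0.0237 to 0.0471), and with upper-quartile scaling (-0.52, adjusted p = 0.0481). With the score as a covariate the fold for acetate without inhibitor was 0.22 (adjusted p = 0.632). In that fit Vgf fell with acetate in the presence of the inhibitor (-0.91, adjusted p = 0.0127). Of 2 genes known as receptors of VGF-derived peptides, C3ar1, a complement receptor of microglia, fell with acetate without (-4.99, adjusted p = 0.00125) and with the inhibitor (-4.47, adjusted p = 0.00649), and C1qbp fell by 0.18 with acetate and inhibitor (adjusted p = 0.0382, and 0.0585 without both libraries) and by 0.27 with the inhibitor in the presence of acetate (adjusted p = 0.017).

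Scg2, the precursor of secretoneurin (chromosome 1, 79434669 to 79440120, minus strand), fell with acetate without the inhibitor. Its level was 81.9, 147, 160 and 155 CPM in DMSO vehicle 1 to 4 and 71.4, 72.4, 70.8 and 73.0 CPM in DMSO acetate 1 to 4. It was 95.8, 57.3 and 107 CPM in inhibitor vehicle and 50.4, 67.2, 64.8 and 80.3 CPM in inhibitor acetate. DMSO vehicle 1 lay closer to the acetate libraries than to its own group, and inhibitor vehicle 2 was the lowest of its group. The fold with acetate was -0.92 without inhibitor (SE 0.21, adjusted p = 0.00223), 1.89-fold lower and with no overlap, and -0.40 with it (SE 0.22, adjusted p = 0.175). The folds of the inhibitor, -0.64 without acetate (SE 0.23, adjusted p = 0.0968) and -0.13 with it (SE 0.21, adjusted p = 0.779), did not pass. Without DMSO vehicle 1 and inhibitor vehicle 2 Scg2 fell with acetate with inhibitor (-0.63, adjusted p = 2.06e-04) and with the inhibitor without acetate (-0.60, adjusted p = 0.0115) as well. The first of these also passed with only inhibitor vehicle 2 left out (adjusted p = 0.0219). The second also passed with only DMSO vehicle 1 left out (adjusted p = 0.0245). With the score as a covariate the acetate fold without inhibitor was 0.04 (adjusted p = 0.921), on the other side of 0. The log2 ratio of Scg2 to Vgf averaged -2.24 ± 0.40 (SD, n = 4) with DMSO alone and -2.66 ± 0.13 (n = 4) with acetate. In the inhibitor groups it was -2.32 ± 0.29 (n = 3) with vehicle and -1.31 ± 0.21 (n = 4) with acetate. It was higher by 1.35 with the inhibitor in the presence of acetate (exact permutation p = 0.0286, adjusted p = 0.0952) and by 1.01 with acetate in the presence of the inhibitor (exact permutation p = 0.0571, adjusted p = 0.114), in both cases with no overlap.

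Pcsk1, the prohormone convertase (chromosome 13, 75089826 to 75134861, plus strand), was lower with the inhibitor in both media. It was a low transcript, at 3.65, 3.06, 3.29 and 3.06 CPM in DMSO vehicle 1 to 4 and 2.52, 2.90, 2.90 and 3.08 CPM in DMSO acetate. It was at 1.69, 2.51 and 1.63 CPM in inhibitor vehicle and 1.74, 1.42, 1.85 and 1.66 CPM in inhibitor acetate. Every inhibitor library lay below every DMSO library of the same medium, and inhibitor vehicle 2 was the highest of its group. The inhibitor's fold was -0.75 without acetate (SE 0.18, adjusted p = 0.0309), 1.68-fold lower, and -0.77 with it (SE 0.17, adjusted p = 0.0194), 1.70-fold lower. Acetate folds were -0.20 without inhibitor (SE 0.16, adjusted p = 0.319) and -0.21 with it (SE 0.18, adjusted p = 0.393). Without DMSO vehicle 1 and inhibitor vehicle 2 both inhibitor calls were kept (-0.92, adjusted p = 0.0108, and -0.76, adjusted p = 0.00217). Leaving out DMSO vehicle 2, DMSO vehicle 3, inhibitor vehicle 1 or inhibitor vehicle 3 ended the call without acetate (adjusted p 0.0504 to 0.108), and leaving out DMSO acetate 2, DMSO acetate 4 or inhibitor acetate 2 ended the call with acetate (adjusted p 0.0549 to 0.0652).

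Promoters of these genes were read from a RefSeq table (GRCm38.p6), in which Scg2, Inhba and Pcsk1 matched by symbol. The windows are shown because Scg2 and Pcsk1, which differed in the comparisons they passed, hold the same palindromic cyclic AMP response element, the letters bound by CREB-family factors. Bases run 5′ to 3′ on the gene's strand. The stretches of Pcsk1 and Inhba stop before the GENCODE gene and the RefSeq start, while that of Scg2 lies upstream of the RefSeq start but inside the GENCODE gene, which begins at 79440120 on the minus strand. Capitals mark TGACGTCA and TGACG in Scg2 and Pcsk1 and TATAAA in Inhba.
Scg2, chr1:79440076-79440105, minus strand: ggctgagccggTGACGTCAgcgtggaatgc
Pcsk1, chr13:75089607-75089825, plus strand: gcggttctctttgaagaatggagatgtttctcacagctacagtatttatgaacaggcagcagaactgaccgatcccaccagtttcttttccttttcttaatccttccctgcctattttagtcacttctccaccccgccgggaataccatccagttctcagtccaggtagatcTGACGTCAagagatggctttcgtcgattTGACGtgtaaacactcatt
Inhba, chr13:16011601-16011850, plus strand: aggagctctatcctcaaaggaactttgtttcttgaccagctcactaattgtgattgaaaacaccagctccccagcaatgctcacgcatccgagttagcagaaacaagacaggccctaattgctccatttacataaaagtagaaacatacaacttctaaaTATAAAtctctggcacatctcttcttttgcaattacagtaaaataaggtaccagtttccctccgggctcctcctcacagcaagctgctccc
TGACGTCA began 68 bases upstream of the RefSeq start in Scg2 and 78 in Pcsk1, and a separate TGACG began 50 bases upstream in Pcsk1. In Inhba TATAAA began 91 bases upstream. Searched on both strands in 32851 promoters of 300 bases (250 before and 50 after the start), TGACGTCA was in 1.79%, TGACG, which each TGACGTCA also holds on both strands, in 20.8%, the AP-1 letters TGANTCA in 7.81% and TATAAA in 13.6%. A match describes the letters only, and no binding was measured.

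Of 14 other granins and peptide-processing genes, 5 rose and 4 fell with acetate without inhibitor (median 0.21), and 3 rose and 3 fell with it (median 0.12), beside the shares of all genes given above. Pcsk1n, which encodes proSAAS, an inhibitor of PCSK1, rose by 1.14 (SE 0.15, adjusted p = 5.63e-05), from 458 ± 77.5 CPM (SD, n = 4) in DMSO vehicle to 1008 ± 129 CPM (n = 4) in DMSO acetate. Pcsk2, the other main convertase, rose by 0.51 (adjusted p = 3.02e-04), and Pam, which amidates peptides, fell by 0.83 (SE 0.13, adjusted p = 1.76e-04). Cpe, the carboxypeptidase that trims cut precursors, fell by 0.25 (adjusted p = 0.0154). With the inhibitor present, acetate raised Pcsk1n by 0.43 (adjusted p = 0.0471) and lowered Pam by 0.42 (adjusted p = 0.0301). The inhibitor lowered 2 genes of the list without acetate (median -0.15, against 1.99% of all genes), among them Pam (-0.74, adjusted p = 0.0136). With acetate it lowered 1 (median -0.13, against 3.42% of all genes), Pcsk2 (-0.54, adjusted p = 0.00359). Without DMSO vehicle 1 and inhibitor vehicle 2 it lowered 2 with acetate, against 10.7% of all genes. The log2 ratio of Pcsk1 to Pcsk2 averaged -4.33 ± 0.10 (SD, n = 4) with DMSO alone and -5.03 ± 0.08 (n = 4) with acetate added. It was lower by 0.70 with no overlap (exact permutation p = 0.0286, adjusted p = 0.0952). In the presence of the inhibitor the acetate difference was -0.42 and the groups overlapped (exact permutation p = 0.171, adjusted p = 0.229). There it was -0.16 without both libraries, also with overlap.

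Inhba, the activin beta A subunit (chromosome 13, 16011851 to 16031621, plus strand), fell with acetate without the inhibitor. It was at 3.08, 8.15, 7.41 and 6.97 CPM in DMSO vehicle 1 to 4 and at 3.0, 3.01, 3.70 and 3.95 CPM in DMSO acetate. It was at 4.26, 1.37 and 4.27 CPM in inhibitor vehicle and at 3.31, 2.07, 1.90 and 2.92 CPM in inhibitor acetate. DMSO vehicle 1 lay among the acetate libraries, and inhibitor vehicle 2 was the lowest of all 15. The fold with acetate was -0.91 without inhibitor (SE 0.33, adjusted p = 0.0322) and -0.38 with it (SE 0.37, adjusted p = 0.456). Inhibitor folds of -0.95 without acetate (SE 0.37, adjusted p = 0.123) and -0.41 with it (SE 0.34, adjusted p = 0.538) did not pass. Without DMSO vehicle 1 and inhibitor vehicle 2 Inhba fell in 3 comparisons, with acetate without (-1.15, adjusted p = 7.03e-06) and with inhibitor (-0.73, adjusted p = 0.00509) and with the inhibitor without acetate (-0.82, adjusted p = 0.0225; 0.0469 without DMSO vehicle 1 alone). The call for acetate without inhibitor was lost without any 1 of DMSO vehicle 2, 3 and 4 and DMSO acetate 1, 2 and 3 (adjusted p 0.0524 to 0.0924), and with the score as a covariate the fold was 0.69 (adjusted p = 0.241), in the opposite direction.

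Follistatin, the secreted protein that binds and blocks activin, went the other way: Fst rose with acetate without inhibitor, from 4.62 ± 2.03 CPM (SD, n = 4) to 11.6 ± 0.67 CPM (n = 4), a fold of 1.32 (SE 0.31, adjusted p = 0.00266) with no overlap. With the inhibitor its acetate fold was 0.48 (adjusted p = 0.28), and without DMSO vehicle 1 and inhibitor vehicle 2 it rose there as well (1.17, adjusted p = 1.13e-06). The log2 ratio of Inhba to Fst averaged 0.46 ± 1.17 (SD, n = 4) with DMSO alone and -1.75 ± 0.28 (n = 4) with acetate added. The difference was -2.21 with no overlap (exact permutation p = 0.0286, adjusted p = 0.0952), and -2.79 without both libraries. In the presence of the inhibitor the acetate difference was -0.88 and the groups overlapped (exact permutation p = 0.286, adjusted p = 0.357). There it was -1.90 without both libraries, with no overlap. Of 5 activin inhibitors, 1 rose and 2 fell with acetate without inhibitor (median -0.35; 1 and 3 without both libraries); those that fell were Bambi, a decoy receptor (-1.20, adjusted p = 0.00118), and Fstl3, which is related to follistatin (-0.88, adjusted p = 0.00999). The other activin and inhibin subunits that were tested, 2 of 4, both rose: Inhbb by 0.54 (adjusted p = 0.0331) and Inha by 0.32 (adjusted p = 0.0214). Inhbb also rose with acetate in the presence of the inhibitor (0.85, adjusted p = 0.00954). Of 5 activin receptors 0 passed with acetate without inhibitor and 1 rose with it (median 0.32). The inhibitor with acetate raised 2, against 2.36% of all genes, among them Acvr2a (0.48, adjusted p = 0.0419). Of 5 signalling genes 2 fell with acetate without inhibitor (median -0.19), Smad3, which carries the activin signal (-1.20, adjusted p = 3.13e-04), and Smad7, its feedback inhibitor (-0.85, adjusted p = 0.00339), and 1, Smad3, fell with it (-0.89, adjusted p = 0.00656). Without both libraries 1 of these rose and 2 fell with it. Over all tested genes 23.7% rose and 27.5% fell with acetate without inhibitor, and 14.5% rose and 20.6% fell with it. Without both libraries these shares were 28% and 31.6%, and 22.5% and 26.7%.

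The difference between the acetate response with the inhibitor and that without it was tested in the same fit over all 4 groups. It passed for 0 of the 7 genes and for 3 of all 15075 genes (0.0199%), with a median of 0.54 over the 7 genes and 0.0019 over all genes. At an unadjusted p under 0.05 there were 4: Nptx1 at 1.5 (95% confidence interval 0.96 to 2.04, adjusted p = 0.0702), Nptx2 at 1.18 (0.38 to 1.97, adjusted p = 0.102), Nptxr at 0.84 (0.06 to 1.61, adjusted p = 0.207) and Vgf at -0.96 (-1.61 to -0.32, adjusted p = 0.0978). DESeq2's Wald test passed 3 of them: Nptx1 (1.51, adjusted p = 1.97e-05), Nptx2 (1.18, adjusted p = 0.0266) and Vgf (-0.96, adjusted p = 0.028), and it passed 9.34% of the 10790 genes it gave an adjusted p. The same 3 passed in edgeR without DMSO vehicle 1 and inhibitor vehicle 2, with 1.64 for Nptx1 (adjusted p = 3.15e-06), 1.04 for Nptx2 (adjusted p = 0.0113) and -1.15 for Vgf (adjusted p = 0.0164), where 4.29% of all genes passed. Leaving out 1 library, Nptx1 passed without DMSO vehicle 1 (adjusted p = 0.027), inhibitor vehicle 2 (adjusted p = 0.00148) or inhibitor vehicle 3 (adjusted p = 0.0214), and Nptx2 without inhibitor vehicle 3 (adjusted p = 0.0485). In these 3 fits 0.432%, 0.124% and 6.6% of all genes passed. For Scg2 the difference was 0.51 (-0.14 to 1.17), for Inhba 0.54 (-0.53 to 1.60) and for Pcsk1 -0.01 (-0.53 to 0.50).

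The same comparisons can be read from whether the libraries of 2 groups overlapped. With acetate without inhibitor every acetate library lay below every vehicle library for 2 of the 7 genes, Nptx2 and Scg2, against 23.3% of all genes. With the inhibitor this held for 1, Vgf, against 16.4%, and the reverse order for 1, Nptx1, against 16.4%. For the inhibitor without acetate every inhibitor library was below for 3, Nptx1, Nptx2 and Pcsk1, against 7.36% of all genes. With acetate it was below for 3, Vgf, Nptx2 and Pcsk1, against 12.4%, and above for 1, Nptx1, against 8.96%. With DMSO vehicle 1 and inhibitor vehicle 2 left out, the acetate libraries were below for 3 genes without inhibitor (against 31.9%), and with inhibitor below for 4 (against 31.2%) and above for 1 (against 28%). The inhibitor libraries were then below for 5 without acetate (against 18.7%), and with acetate below for 3 (against 12.3%) and above for 1 (against 8.92%).

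Per kilobase of annotated exon, the 7 genes spanned over 2 orders of magnitude in level. In DMSO vehicle Vgf was at 212 ± 39.8 CPM per kb (SD, n = 4) and Scg2 at 54.0 ± 14.4. Nptx1 at 17.9 ± 4.13 and Nptx2 at 16.1 ± 4.63 did not differ beyond their spread. Nptxr was at 2.78 ± 0.82, and Inhba at 1.0 ± 0.35 and Pcsk1 at 0.58 ± 0.05 were the lowest. In inhibitor acetate Nptx1 (21.6 ± 1.70 CPM per kb, n = 4) and Scg2 (26.1 ± 4.88) were close, while Nptx2 (2.19 ± 0.39) stood beside Nptxr (2.16 ± 0.65) and Vgf (55.1 ± 12.2) remained the highest.

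Other genes known to follow neuronal activity were counted beside all tested genes. Of all tested genes 27.5% fell and 23.7% rose with acetate without inhibitor, and 20.6% fell and 14.5% rose with it. With DMSO vehicle 1 and inhibitor vehicle 2 left out, 31.6% fell and 28% rose without inhibitor, and 26.7% fell and 22.5% rose with it. Of 14 other activity-regulated secreted genes, 2 rose and 8 fell with acetate without inhibitor (median -0.75), and 0 rose and 7 fell with it (median -0.78). These counts became 2 and 10, and 2 and 8, with DMSO vehicle 1 and inhibitor vehicle 2 left out. Plat, tissue plasminogen activator, fell by 1.68 (SE 0.16, adjusted p = 6.06e-06) and Pdyn, the prodynorphin precursor, by 2.5 (SE 0.34, adjusted p = 7.68e-05). Of 15 immediate early factors 1 rose and 10 fell with acetate without inhibitor (median -0.79), and 0 rose and 8 fell with it (median -0.74). Without both libraries 3 of them rose and 9 fell, and 2 rose and 12 fell with it. Fos fell by 1.73 (adjusted p = 1.79e-04), Atf3 by 3.87 (adjusted p = 6.10e-05) and Fosl2 by 0.70 (adjusted p = 2.55e-04). The inhibitor lowered 2 of the early factors without acetate (median -0.44) and 6 with it (median -0.49), and 1 and 2 of the secreted genes, where 1.99% and 3.42% of all genes fell. Without both libraries it lowered 4 and 8 of the early factors and 4 and 6 of the secreted genes, against 2.6% and 10.7% of all genes. Of 13 genes of the CREB pathway, 4 rose and 3 fell with acetate without inhibitor (median 0.13), with Crtc1, a CREB coactivator, up by 0.49 (adjusted p = 3.82e-04), Camk4, a calcium-dependent kinase, by 1.11 (adjusted p = 0.00189), and Ppp3ca, a subunit of calcineurin, by 0.89 (adjusted p = 0.0015). With the inhibitor present 2 rose and 2 fell with acetate (median 0.16). Without both libraries 6 rose and 3 fell, and 7 rose and 2 fell with it. Most tested non-neuronal markers, but not all, fell in the same acetate libraries. Without inhibitor 7 of 11 astrocyte, 9 of 11 oligodendrocyte lineage and 14 of 14 microglia markers fell with acetate. So did 6 of 9 vessel and 9 of 10 meninges and fibroblast markers, and 1 vessel marker rose. The part of these markers in the counts was not tested. Acss2 itself, whose product the inhibitor targets, was at 25.8 ± 6.65 CPM (SD, n = 4) with DMSO alone and 18.1 ± 2.5 CPM (n = 3) in inhibitor vehicle, a fold of -0.51 (adjusted p = 0.0716). Its fold for the inhibitor with acetate was -0.27 (adjusted p = 0.305). Acetate raised Acss2 in the presence of the inhibitor (0.49, adjusted p = 0.0319). Without inhibitor the acetate fold was 0.25 (adjusted p = 0.177), and 0.45 without both libraries (adjusted p = 0.00134). The inhibitor's action on the enzyme was not measured.

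**Figure D4:**
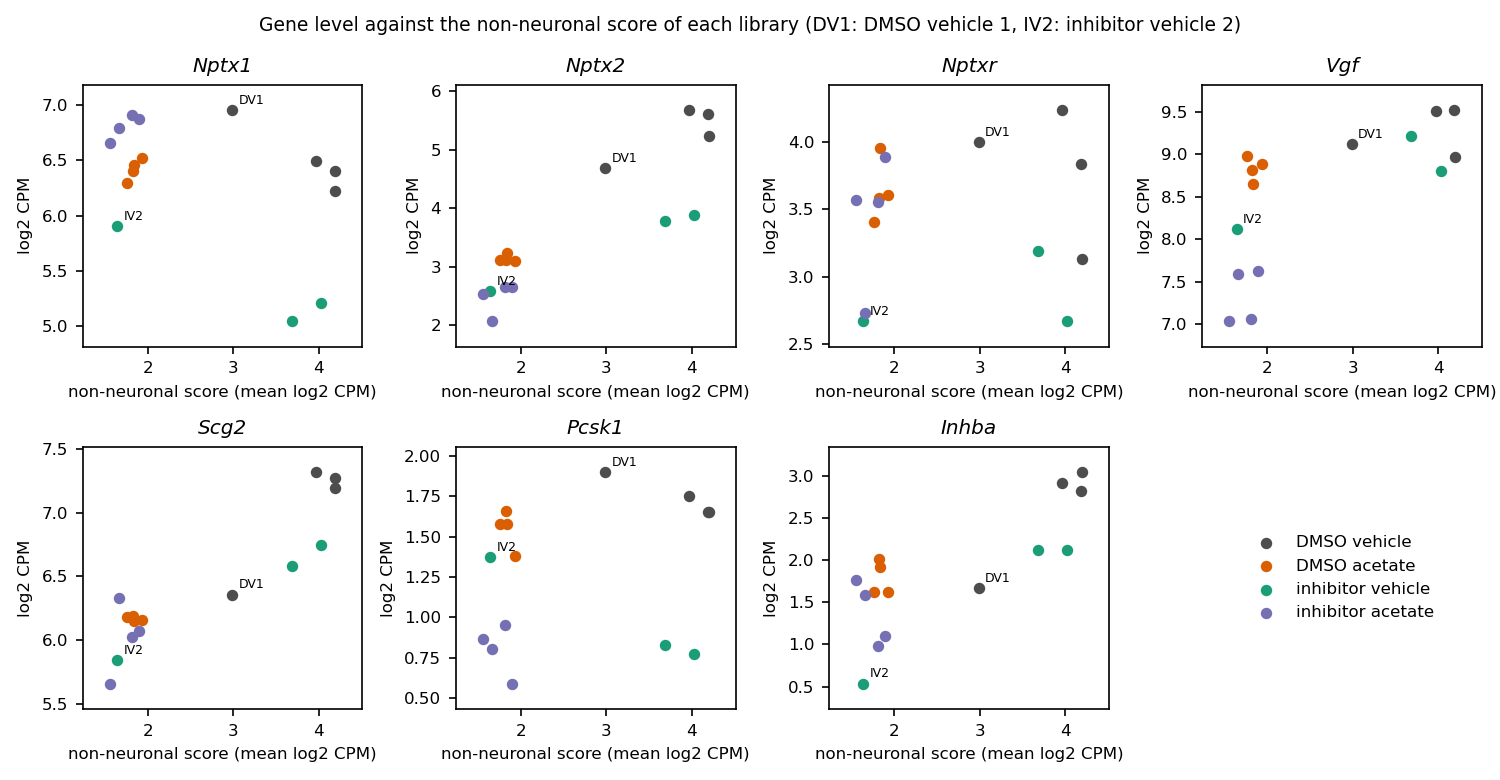
Log2 CPM of the 7 genes against the non-neuronal score of each library, with 1 point per library coloured by group. DMSO vehicle 1 (score 2.99) and inhibitor vehicle 2 (score 1.64) lie apart from their groups, low for Scg2, Inhba and Nptx2 and high for Nptx1 and Pcsk1.

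Profiles were compared by the root mean square (RMS) difference of log2 CPM, each gene centred on its own mean, over the 15 libraries and 11075 genes; libraries share groups and the marker shifts above. The profile nearest to Scg2 was that of Rcan2, a calcineurin regulator (0.17), followed by Tgfb1i1 (0.18) and Tpm4, a tropomyosin (0.19). The nearest to Pcsk1 were Asf1b (0.19), Cdc45 (0.20) and Hdac9 (0.22), a histone deacetylase that fell with the inhibitor without acetate (-0.60, adjusted p = 0.0118) and with it (-0.62, adjusted p = 0.00465). The nearest to Vgf were Lsp1 (0.30), Csrnp1 (0.33) and Spred3, an inhibitor of Ras signalling (0.34), and Spred3 was lower with the inhibitor in the presence of acetate (-1.26, adjusted p = 5.92e-05). Spred3 was also among the 3 genes whose acetate responses differed (-1.19, adjusted p = 0.0151). For Nptx1 the nearest were Thsd4 (0.28), Kcnn3, a calcium-activated potassium channel (0.29), and Opcml (0.31). For Nptx2 they were Mfap4 (0.38), Afap1l2 (0.40) and Tfap2c (0.41), for Nptxr Gpr27 (0.29), Iqsec3 (0.34) and Ppp1r3e (0.34), and for Inhba Ildr2 (0.29), Reln (0.32) and Slc1a5 (0.33). Among the 7 genes themselves, Scg2 ranked 10 of 11075 by nearness to Inhba (0.36), while Nptx2 ranked 10806 by nearness to Nptx1 (1.34).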

How the data were processed

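The authors deposited raw counts of reads on each gene symbol in 15 libraries. Per the submitters' processing notes they used STAR 2.5.2a, HTSeq 0.6.1p1, DESeq2 and mm10. Annotation, counting mode and strandedness: not given in the sources used here; genes that overlap or lie antisense are uncertain. Lines without a gene name, 38.9% to 47.4% of the counts of a library, were dropped. Groups and replicate numbers came from the labels. The 7 genes, the gene lists and the tests were chosen with earlier results of these data known.

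The tests used edgeR 4.0.16 under R 4.3.3 (default expression filter, TMM factors 0.885 to 1.13, 1 quasi-likelihood fit of 4 group means over all 15 libraries, Benjamini-Hochberg adjustment over 15075 genes, threshold 0.05). The biological coefficient of variation was 16.8%. Log2 CPM, in ratios too, used a prior count of 2, and ratios were tested by exact two-sided permutation over libraries. The steps were tested on simulated data. No 2 libraries of a group agreed within sampling noise (chi-square per gene 4.65 to 144 over 21 pairs). Same-numbered libraries did not deviate together (correlation over 0.1 in 6 of 21 pairs, range -0.65 to 0.38), so numbers were not used to pair.

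Genes were named by rule: the 7 genes, with Fst, Pcsk2, Cpe, Gria1, Gria4 and Acss2, up to 3 genes per pathway list with the smallest p for acetate without inhibitor, and the 3 profiles nearest to each of the 7 among genes whose mean log2 CPM was 2 or more. Positions are from GENCODE on GRCm38 (mm10) and promoters from RefSeq. Alternatives were DESeq2 1.42.0 (size factors and Wald test), upper-quartile scaling, scaling on neuronal markers, no expression filter, only the compared groups, a replicate block, the non-neuronal score as a covariate, and leaving out libraries. DMSO vehicle 1 and inhibitor vehicle 2 were picked for their place in these data, also for the folds. For ratios, gene lists and overlaps, leaving out both was chosen after seeing the data.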

Additional observations from a re-analysis of the deposited data

Results flagged for a closer look

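Scg2 in DMSO vehicle 1 was at 81.9 CPM against 147 to 160 CPM in the other libraries of its group, a gap large for the range of the group. Nptx2 in DMSO acetate 3 was at 9.36 CPM against 8.49 to 8.60 CPM in the other 3. Groups of 4 libraries were examined for 7 genes (21 in all), chance marks about 1 in 20 such groups, and these 2 were marked. Nptx1 was lower in every inhibitor library than in every DMSO library without acetate and higher in every one with acetate. The difference between these responses of Nptx1 was 1.5 on the log2 scale, which is the same quantity as the difference of the acetate responses, and it did not pass edgeR's quasi-likelihood test (adjusted p = 0.0702).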

How the results depend on the processing

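Of the 7 genes, 3 fell with acetate without inhibitor in the main analysis and 7 with scaling on neuronal markers, a scaling that moved the median of all genes to -0.91 for this comparison and to -0.58 with the inhibitor. With the inhibitor the number that fell with acetate was 2, against 4 with that scaling, 1 with the non-neuronal score entered as covariate, 4 without DMSO vehicle 1 and inhibitor vehicle 2, and 1 to 3 leaving out 1 library; the number that rose was 1, against 1 to 2 leaving out 1 library. For the difference of acetate responses the number above 0 was 0, against 1 (neuronal scaling), 2 (covariate), 2 (without both libraries), 2 (DESeq2's Wald test) and 0 to 2 leaving out 1, and the number below 0 was 0, against 1 with the covariate, 1 without both libraries and 1 with DESeq2. The inhibitor without acetate lowered 4, against 2 with neuronal scaling, 0 with only the compared groups (5 at an unadjusted p under 0.05) and 2 to 5 leaving out 1. With the replicate block, a pairing the deviations did not bear out, it lowered 2, and the block ended the calls of Nptxr (adjusted p = 0.0563) and Pcsk1 (adjusted p = 0.0622) there and of Inhba with acetate without inhibitor (adjusted p = 0.0514). The inhibitor with acetate lowered 2, against 1 with neuronal scaling and 1 to 3 leaving out 1, and raised 0, against 1 with only the compared groups, 1 with the covariate and 1 without both libraries. Without the expression filter Nptxr no longer passed for the inhibitor without acetate (adjusted p = 0.0501). Over all 15075 genes, 974 fell with acetate with inhibitor in the covariate fit. For the difference of responses 210 passed above 0 and 493 below 0 in that fit, and 2 passed above 0 with neuronal scaling. The inhibitor without acetate lowered 61 with neuronal scaling and 203 with the replicate block. With acetate it lowered 10 with neuronal scaling and raised 840 with the covariate. With only the compared groups it raised 1201 of 13996 genes there.

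Directions changed as follows. With the covariate the acetate folds without inhibitor were 0.22 for Vgf, 0.0386 for Scg2 and 0.69 for Inhba, and with inhibitor 0.28 for Scg2 and 0.90 for Inhba. Without both libraries Nptx1 was at 0.0473 for acetate without inhibitor and Pcsk1 at 0.0131 for acetate with it. The difference of responses of Pcsk1 was 0.0354 with upper-quartile scaling, 0.33 with neuronal scaling, 0.16 with the covariate and 0.16 without both libraries. Scg2 for the inhibitor with acetate was at 0.0216 with neuronal scaling. Leaving out 1 library, folds ranged from -0.23 to 0.0308 for Nptx1 (acetate without inhibitor), -0.32 to 0.0129 for Pcsk1 (acetate with inhibitor), -0.12 to 0.21 for the Pcsk1 difference of responses and -0.32 to 0.0294 for Nptxr (inhibitor with acetate), and log2 ratios from -0.25 to 0.0791 for Scg2 to Vgf (inhibitor without acetate) and -0.15 to 0.0748 for Inhba to Fst (inhibitor with acetate). The cause of these changes was not tested. Of the values of single genes and ratios under alternatives, 26 changed sign, 44 newly passed the threshold, 41 no longer passed it and 1062 kept both direction and side of the threshold. Inhba and Pcsk1 had the lowest mean CPM of the 7 genes in every group, and the 3 inhibitor vehicle libraries limit every comparison that uses them.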
